A study of Mus musculus with 8 samples.

Results

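Gcsam and Basp1 were examined in sorted mouse B cells as a pair of genes whose germinal centre rise was large after T-dependent immunisation and small after T-independent immunisation. They were chosen by their intensities in these same arrays, so the differences between T-independent, T-dependent and resting cells are given as descriptions without a test. The platform annotation named 8252 genes. It gave these 2 genes 3 of the 12488 probe sets, 1 for Gcsam and 2 for Basp1, which are called s_at and r_at here after the suffixes of their identifiers. All 3 were kept by the filter on low values, Basp1 s_at through its 6 germinal centre arrays alone.

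RNA was measured on 8 one-colour Affymetrix arrays, 2 for each of 4 groups. Every mouse was a QMxB6 F1, and the QM strain carries a knocked-in heavy chain variable region that favours binding of the hapten NP. Resting B cells, sorted as GL7-negative and B220-positive, came from unimmunised animals. The other groups were sorted as GL7-positive and B220-positive germinal centre B cells. The T-independent mice (TI) had received 30 µg of NP on the polysaccharide Ficoll, for which the labels name no adjuvant, and were taken on day 4. In the primed T-dependent mice (primed TD), 50 µg of alum-precipitated chicken gamma-globulin with heat-killed B. pertussis came first. After 5 weeks they were given 50 µg of NP-CGG, NP coupled to this carrier, in soluble form and were taken on day 4. Unprimed T-dependent mice (unprimed TD) had 1 dose of 50 µg of alum-precipitated NP-CGG with heat-killed B. pertussis and were taken on day 10. All injections were intraperitoneal. The germinal centre cells were enriched on magnetic columns before the sort. Each array held a pool of mice, 6 and 9 in resting and also in primed TD, 6 and 6 in unprimed TD, and 4 and 10 in TI. TI thus differed from both TD groups in antigen, in dose and in the adjuvant the labels name, and these cannot be told apart. Priming was part of 1 TD group alone, and unprimed TD also differed from TI in the day. Ages were not given in the labels used here.

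Gcsam is an adaptor protein found mainly in germinal centre B cells. Its human counterpart binds the kinase SYK and the adaptor GRB2, strengthens B cell receptor signalling and slows cell movement through RhoA. Basp1 is an acidic, myristoylated protein of the inner face of the plasma membrane, best known from nerve terminals, where it binds calmodulin and phosphoinositides like its relatives Gap43 and Marcks. In the nucleus Basp1 can act with the transcription factor WT1 as a corepressor.

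The genes lie on different chromosomes of assembly GRCm38.p6. RefSeq places Gcsam at chr16:45610440-45622867 on the plus strand and Basp1 at chr15:25363277-25413764 on the minus strand. The 250 bases before each start site, from RefSeq on the same assembly, are shown because both genes were high in the same 4 arrays. The Gcsam stretch covers chr16:45610190-45610439 and the Basp1 stretch chr15:25413765-25414014. Each is written 5′ to 3′ on the strand of its gene, and capitals mark CG dinucleotides.

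Gcsam: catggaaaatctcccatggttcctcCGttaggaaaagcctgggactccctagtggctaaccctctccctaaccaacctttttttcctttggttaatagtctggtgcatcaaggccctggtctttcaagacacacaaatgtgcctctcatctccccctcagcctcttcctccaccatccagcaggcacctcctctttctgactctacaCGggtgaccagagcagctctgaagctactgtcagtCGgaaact
Basp1: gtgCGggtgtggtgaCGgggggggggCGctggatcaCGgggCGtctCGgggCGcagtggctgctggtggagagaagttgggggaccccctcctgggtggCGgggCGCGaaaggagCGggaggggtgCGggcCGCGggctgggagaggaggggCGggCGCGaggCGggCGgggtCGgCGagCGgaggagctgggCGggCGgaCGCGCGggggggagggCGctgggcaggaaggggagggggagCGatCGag

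The sequences differ in composition. The Gcsam stretch held 3 CG dinucleotides and 51.6% G or C, against medians of 6 and 52.4% over 32851 mouse promoter windows of this length. The Basp1 stretch held 30 CG dinucleotides and 78.8% G or C, and 98.3% of the windows had a lower G and C share. Each was searched on both strands for the octamer ATGCAAAT, the STAT6 element (TTC and GAA with 4 bases between them), the E boxes CAGGTG and CAGCTG and the TATA box TATAAA. None of these motifs was found in either stretch. Over all windows the motifs occurred in 1.60%, 5.85%, 17.2%, 13.0% and 12.4%, in that order.

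Gcsam read 154 and 101 intensity units in the resting arrays, 753 and 661 in primed TD, 768 and 501 in unprimed TD, and 156 and 131 in TI. All 4 TD arrays were above every other array, and the TI and resting arrays overlapped. The group means were 127.5 ± 37.5 in resting, 143.5 ± 17.7 in TI, 634.5 ± 189 in unprimed TD and 707 ± 65.1 in primed TD (SD, n = 2 each). In this order neither resting and TI nor unprimed TD and primed TD were separated beyond the spread of their arrays. The replicate arrays of unprimed TD differed by 0.62 on the log2 scale, against a median of 0.21 over all tested probe sets. Values under a floor of 81 units, the median of all deposited values, were set to 81 before log2 was taken. On this log2 scale primed TD lay 2.50 and unprimed TD 2.31 above resting, and TI lay 0.20 ± 0.30 (SE) above resting. TI was 2.21 ± 0.26 (SE) below the mean of the TD groups on the log2 scale, a 4.63-fold difference. That was the 36th largest fall among 7253 probe sets tested. These arrays measured RNA of whole sorted populations, in which fewer Gcsam-expressing cells and less Gcsam RNA per cell cannot be told apart.

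Basp1 s_at read -26 and 6 units in resting, both under the floor, 5311 and 3677 in primed TD, 4375 and 4794 in unprimed TD, and 584 and 495 in TI. The 3 levels were apart: the TD arrays lay far above the TI arrays, and the TI arrays above the resting arrays. The means were 539.5 ± 62.9 in TI, 4494 ± 1155 in primed TD and 4584.5 ± 296 in unprimed TD (SD, n = 2 each). Against resting, the rise was at least 54.6-fold in primed TD and at least 56.5-fold in unprimed TD, rank 1 of 7253 in both comparisons. In TI it was at least 6.64-fold, rank 32. TI was 8.37-fold below the mean of the TD groups (log2 difference -3.06 ± 0.19, SE), rank 14 among falls. Unlike Gcsam, Basp1 at this probe set was thus above the resting arrays on both TI arrays.

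The second Basp1 probe set, r_at, gave another picture. It read 3376 and 2462 units in resting, 4183 and 3961 in primed TD, 3820 and 4049 in unprimed TD, and 2309 and 2909 in TI. Its TD arrays were again the 4 highest, by a narrow margin of 1.13-fold between the lowest TD array and the highest of the rest, and TI and resting overlapped. Against resting the log2 differences were 0.50 ± 0.21, 0.45 ± 0.21 and -0.15 ± 0.21 (SE) in primed TD, unprimed TD and TI. TI was 1.54-fold below the mean of the TD groups (log2 difference -0.63 ± 0.19, SE), rank 630 among falls. In Affymetrix naming, the suffix s marks probes shared by several transcripts and the suffix r marks a set for which some probe selection rules were dropped. Only the s_at set was under the floor in resting cells. What separates the sets was not tested, and the probe sequences were not used here.

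**Figure D1:**
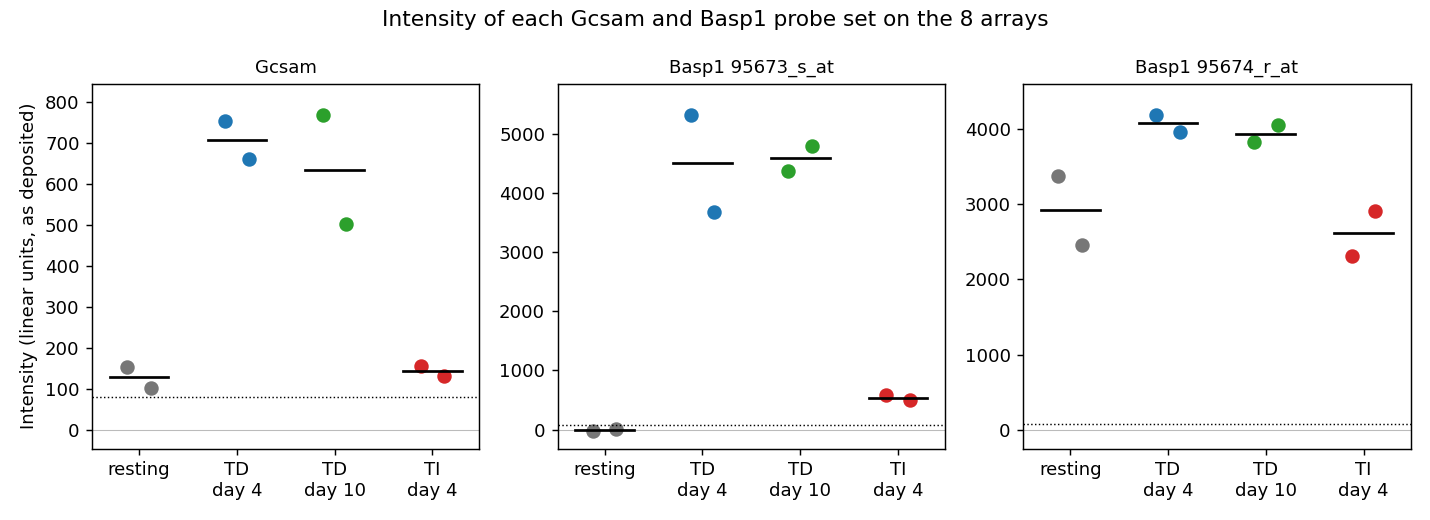
Intensity of the Gcsam probe set and both Basp1 probe sets on each of the 8 arrays, in linear units as deposited. Points are arrays, black bars are group means (n = 2) and the dotted line is the floor of 81 units. In each panel the 4 TD arrays lie highest. The resting arrays are under the floor at s_at but between 2462 and 3376 units at r_at.

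The difference between the T-dependent groups was the contrast that the choice of genes did not use. Primed mice on day 4 and unprimed mice on day 10 gave close values at all 3 probe sets. The ratio of unprimed TD to primed TD was 0.879 for Gcsam (95% interval 0.534 to 1.45), 1.04 for Basp1 s_at (0.717 to 1.5) and 0.966 at r_at (0.674 to 1.39). The intervals are those of the limma fit, and the adjusted p was 1 for each. Differences within these intervals were not detectable with 2 arrays a group. Of 7253 probe sets 0 passed (0%, limma, adjusted p under 0.05), with 373 at an unadjusted p under 0.05. Of the alternatives tried, testing all probe sets without a filter gave 14.

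A simple count places both genes among all probe sets. The lowest TD array was above every TI and resting array, on the floored log2 scale, in 539 of 7253 probe sets (7.43%), and by at least 2-fold in 18 (0.248%). Basp1 s_at stood second of these 18, with a gap of 6.30-fold, and Gcsam seventh, with 3.21-fold, while r_at ranked 271st of all. The pattern is the one that chose the genes, so nothing is read from these ranks. Of the 18, 14 carried 1 gene symbol. Besides the members they were Srsf1, Slpi, Lypla1, Tcea1 (2 probe sets), Psip1, Slc38a10, Plxnb2, Gatm, Lmo7, Tcp1 and Hat1, genes named here after their values were seen. The last inside the limit was Hat1 (2.04-fold), and the first outside was Hspa4 (1.95-fold).

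The TI rise was also set against the TD rise on the linear scale of the deposited intensities. For Gcsam the mean rise over resting was 16 units in TI and 543 in the TD groups, so TI reached 2.95% of the TD rise. Both rises share the resting arrays. The Gcsam share was 7.46% without resting replicate 1, -2.03% without resting replicate 2, and 0.644% and 5.25% without TI replicate 1 and 2, so that its TI level was not separated from resting (these settings were chosen after seeing the data). For Basp1 s_at it was 549.5 against 4549 units, or 12.1%. At r_at the mean change from resting was -310 units in TI and 1084 in the TD groups. Among 367 probe sets called higher than resting in both TD groups (5.06% of those tested), the median share was 64.5%, with quartiles at 41.8% and 101.3%. Gcsam had the 11th lowest share and Basp1 s_at the 27th, which restates how the genes were chosen. The germinal centre repressor gene Bcl6 reached 52.8%, the proliferation marker Mki67 45.7% and the histone methyltransferase gene Ezh2, named after its values were seen, 93.8%.

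**Figure D2:**
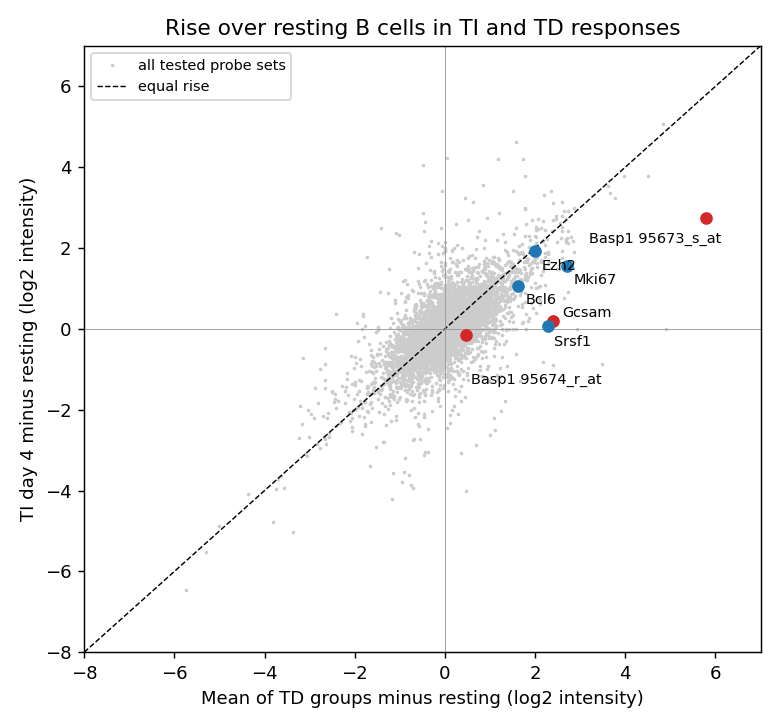
Log2 rise over resting B cells in the mean of the TD groups (horizontal) and in TI (vertical). Grey points are the 7253 tested probe sets, red points the members, blue points 4 genes for comparison, and the dashed line marks an equal rise. Gcsam lies near a TI rise of 0.20 at a TD rise above 2, while Bcl6, Mki67 and Ezh2 lie closer to the line. Beside Gcsam is the Srsf1 probe set nearest to it, and another Srsf1 probe set showed no TD rise. Both coordinates of s_at are lower bounds, since its resting arrays are under the floor.

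The genes with the most similar course over the 8 arrays were found by the root mean square distance between log2 profiles, each centred on its own mean. This is a description of these arrays, and nearest genes share the group structure by construction. For Gcsam the nearest were the splicing factor gene Srsf1 (distance 0.28), Tmpo, which encodes lamina-associated polypeptides (0.40), both probe sets of the transcription elongation factor gene Tcea1 (0.40 and 0.42) and the histone acetyltransferase gene Hat1 (0.43). The median distance of all tested probe sets from Gcsam was 1.21. Srsf1 read 106 and 20 units in resting, 387 and 420 in primed TD, 486 and 519 in unprimed TD, and 118 and 75 in TI. As for Gcsam, its TI arrays fell within or near the resting range. Another tested probe set of Srsf1 showed no TD rise. Its log2 difference from resting was -0.182 in the mean of the TD groups and -0.435 in TI, so the Srsf1 probe sets disagree.

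No gene came as close to Basp1 s_at. The nearest was Anxa2, which encodes a calcium-dependent membrane-binding protein, at a distance of 0.99, followed by the replication clamp partner Pclaf (1.18), the chromatin protein gene Hmgb2 (1.24), the cyclin-dependent kinase subunit gene Cks2 (1.25) and Dbi, which encodes an acyl-CoA binding protein (1.31). The median over all tested probe sets was 2.43. Anxa2 read 44 and -362 units in resting, 1903, 1555, 1886 and 2072 in the TD arrays, and 1087 and 1144 in TI. It shared the low resting values, but its TI arrays lay nearer to the TD arrays than those of Basp1 did. Gcsam stood 16th nearest to this Basp1 probe set, at 1.41. Seen from Gcsam, however, Basp1 s_at was 5968th nearest, farther than the median distance of 1.21.

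The distances were not scaled by the size of the changes, and the median from the flatter r_at over all tested probe sets was 0.44. Its nearest neighbours also lay at smaller distances. They were Ndufb8 of respiratory complex I (0.12), the serotonin receptor gene Htr2b (0.12), Btf3, a subunit of the nascent polypeptide complex (0.13), the ribosome assembly enzyme gene Emg1 (0.13) and the cytochrome oxidase assembly gene Cox16 (0.13). The other Basp1 probe set lay at a distance of 2.20 and was 7247th nearest of the tested probe sets.

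**Figure D3:**
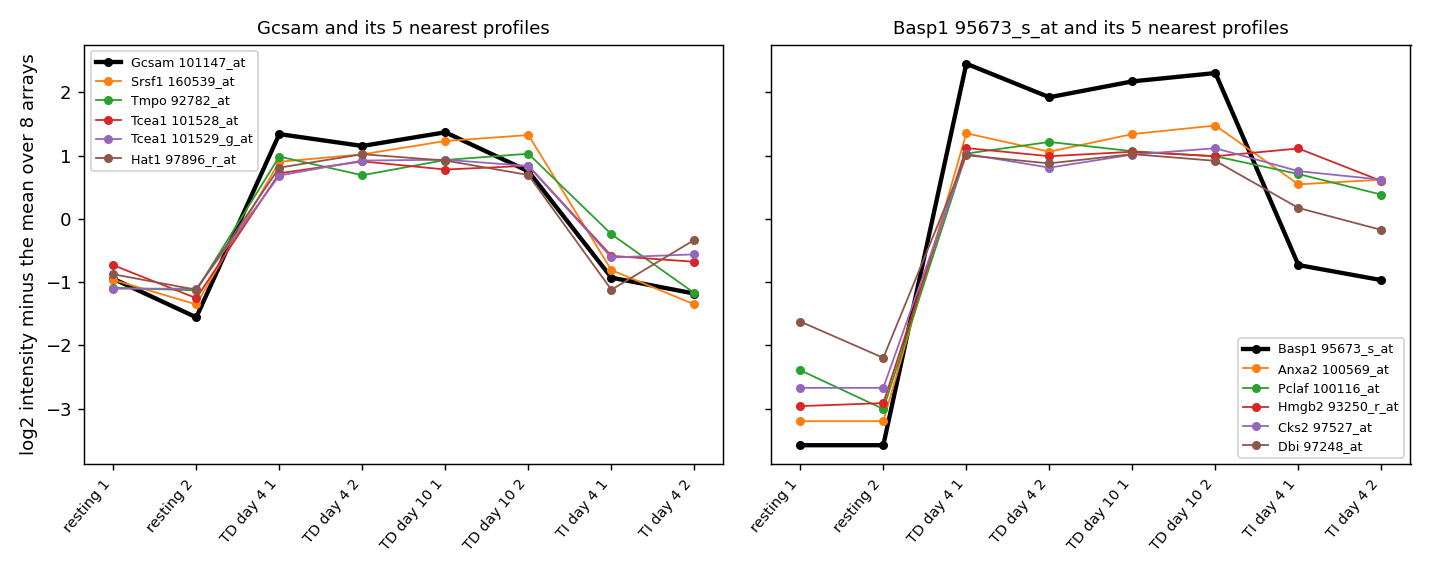
Log2 intensity minus the mean over the 8 arrays for Gcsam (left) and Basp1 s_at (right), in black, each with its 5 nearest probe sets in colour. The array order runs from resting through primed TD and unprimed TD to TI, replicates side by side. Around Gcsam the lines drop in TI. Each neighbour stays above both resting arrays on at least 1 TI array, as Gcsam does narrowly (156 against 154 units). Both Tcea1 probe sets do so on each TI array. Around Basp1 the neighbours stay nearer to their TD level there than Basp1 does.

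Genes that work with Gcsam and Basp1 were tested between TI and the mean of the TD groups, a contrast in which 1.74% of probe sets were higher in TI and 1.89% lower (limma, adjusted p under 0.05). Of 3 measured partners of Gcsam 0 passed, and their median log2 difference was 0.03, against -0.05 over all probe sets. The kinase gene Syk read 3096.5 units on average in TI and 2815 in TD (log2 difference 0.14 ± 0.15, SE), Grb2 557 and 686 (-0.31 ± 0.19), and Rhoa 2206 and 2165.5 (0.03 ± 0.13). The last has 3 tested probe sets, whose differences ranged from -0.23 to 0.34. None of the partners was called against resting in any germinal centre group.

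Cell movement, on which Gcsam acts in human cells, was followed through its own list. Of 20 tested genes of actomyosin motility 1 rose in TI against TD and 0 fell, with a median log2 difference of 0.08. The riser was Pfn1, which encodes the actin monomer-binding protein profilin. It read 1139 and 1343 units in TI, between 442 and 499 in the 4 TD arrays, and 458 and 529 in resting, a log2 difference of 1.38 ± 0.15 (SE, limma adjusted p = 0.011). Both TI arrays were above all 6 others, and the direction is opposite to that of Gcsam. The adaptor gene Was (0.42 ± 0.13, SE), the myosin heavy chain gene Myh9 (0.53 ± 0.24) and the GTPase gene Rac2 (0.33 ± 0.13) did not pass.

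Among 16 tested genes of proximal B cell receptor signalling 1 rose and 0 fell in TI against TD, with a median log2 difference of 0.20. Cd81, which encodes a tetraspanin of the B cell surface, read 1245 and 1391 units in TI, between 634 and 837 in the TD arrays, and 979 and 905 in resting. Its log2 difference was 0.86 ± 0.14 (SE, limma adjusted p = 0.031). The phosphatase gene Ptpn6 (0.75 ± 0.15, SE), the kinase gene Blk (0.79 ± 0.20) and the inhibitory receptor gene Cd72 (-0.87 ± 0.18) did not pass, with limma adjusted p of 0.051, 0.097 and 0.063.

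Of 3 tested relatives of Basp1 0 passed. Gap43 averaged 141.5 units in TI and 79.2 in TD (log2 difference 0.66 ± 0.18, SE, with some TD arrays under the floor), Marcks 119.5 and 21 (0.56 ± 0.17, with all TD arrays under the floor) and Marcksl1 1436 and 1201 (0.27 ± 0.19). Against resting, Marcks fell in both TD groups and Marcksl1 rose in unprimed TD and in TI. Of 8 tested partners and modifying enzymes of Basp1 also 0 passed, with a median of 0.09. They include Wt1, whose protein partners Basp1 in the nucleus (-0.61 ± 0.20, SE), the myristoyltransferase gene Nmt1 (0.13 ± 0.15), the protein kinase C gene Prkcb (0.33 ± 0.23) and the deacetylase gene Hdac1 (0.24 ± 0.24). Another tested probe set of Nmt1 gave 1.13, so its probe sets disagree in size.

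Interleukin 4, a T cell cytokine, is known to induce the human counterpart of Gcsam. Of 8 tested genes of its pathway 0 passed between TI and TD, with a median log2 difference of 0.00. The receptor chain gene Il4ra differed by -0.59 ± 0.32 and its target Fcer2a by -0.38 ± 0.19 (SE). Against resting 3 of the 8 fell in each germinal centre group, Il4ra, Stat6 (named after its values were seen) and Fcer2a. Stat6 was under the floor on all 6 germinal centre arrays and read 352 and 526 units in resting. The background of these contrasts was 3.58% lower in primed TD, 4.44% in unprimed TD and 3.98% in TI.

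Of 9 tested genes of germinal centre B cells, Gcsam and Basp1 not among them, 0 passed between TI and TD, with a median log2 difference of -0.28. The nearest to the threshold was Lmo2, a transcriptional cofactor gene, at -0.75 ± 0.15 (SE, limma adjusted p = 0.051). Bcl6 gave -0.56 ± 0.15, Mki67 -1.16 ± 0.30 and the ligand gene Efnb1 0.73 ± 0.23. Another tested probe set of Mki67 gave -0.10. Against resting, 3 of the 9 rose in primed TD, 5 in unprimed TD and 4 in TI, where 1 fell, Lmo2. The background was 5.83%, 6.45% and 5.42% of probe sets higher in the same order. Some genes of these lists were not analysed here, among them Rgs13, Rock2, Lyn and Il2rg. With the arrays scaled to a common median, unprimed TD had 364 probe sets higher and 392 lower than resting, in place of 468 and 322.

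**Figure D4:**
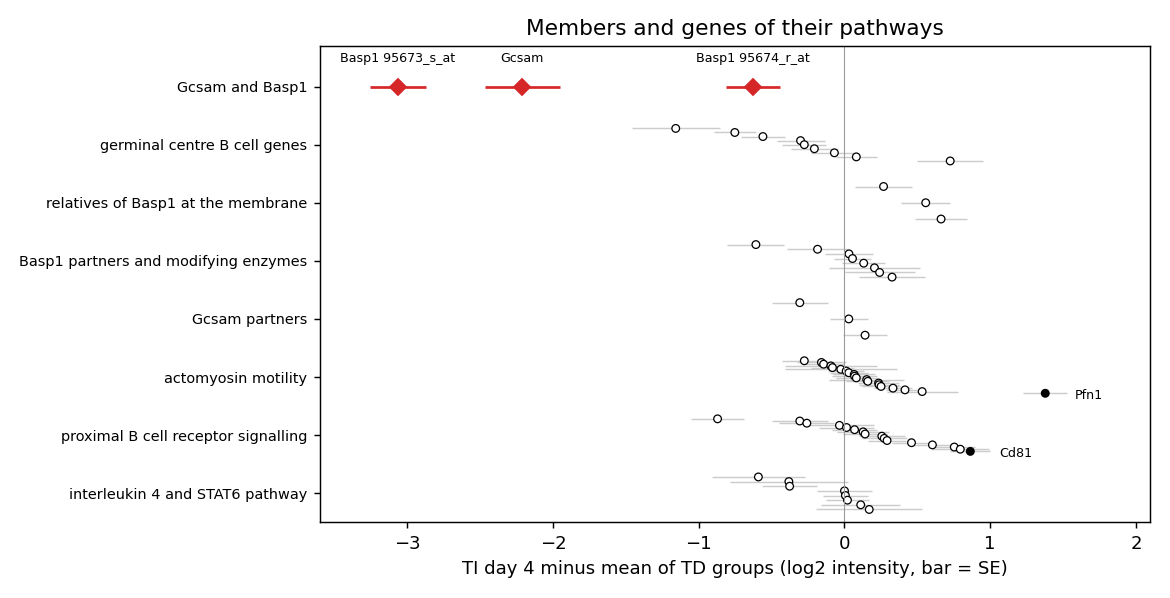
Log2 difference between TI and the mean of the TD groups for the members (red diamonds, not tested) and for each tested gene of 7 lists (circles, filled where limma's adjusted p is under 0.05). Bars are SE and 0 marks no difference. Gcsam and Basp1 s_at lie at -2.21 and -3.06, beyond every listed gene, which restates how the members were chosen. Basp1 r_at, at -0.63, lies within the range of the listed genes. The filled circles are Pfn1 and Cd81.

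Of 6 measured B lineage genes all were above the floor in every group. Cd79a lay between 4405 and 9702 units over the 8 arrays and Cd79b between 4979 and 10557. Against resting, Cd79b was lower in primed and unprimed TD (limma adjusted p = 0.032 and 0.016) and Cd22 in TI (0.047). That is 1 of the 6 in each group, against 3.58%, 4.44% and 3.98% of all tested probe sets. Ptprc, whose product carries the sorted B220 epitope, read 498 and 376 units in TI, 582 to 898 in the TD arrays, and 662 and 744 in resting. Both TI arrays were the lowest, but the log2 difference from TD of -0.76 ± 0.23 (SE) did not pass (limma adjusted p = 0.15), and its other tested probe set gave -1.76. Ms4a1 and Cd22 gave -0.26 each, and 0 of the 6 passed. The part of these differences in the low Gcsam and Basp1 values was not tested. Marker lists of other cells were compared next. Only those of plasma cells and macrophages held genes called between TI and TD. Whether the sorted B cells themselves made these RNAs was not tested. The summed intensity of 6 plasma cell markers was 10289 to 13728 units in TI, 2844 to 4167 in the TD arrays and 2135 to 2255 in resting. Of the 4 tested, Jchain, Xbp1 and Tnfrsf17 were higher in TI than in TD (3 of 4), and Irf4 did not pass (0.66 ± 0.72, SE). Prdm1 was under the floor on both arrays of TI, and also of primed TD and resting. Sdc1, not tested because it was above the floor on too few arrays, was under it on both arrays of every group but TI. Jchain made up most of the TI sum, which was 2942 to 4372 without it, against 984 to 1418 in TD and 1371 to 1452 in resting. The sum of 10 macrophage markers was 4605 to 5864 in TI, 983 to 1874 in TD and 3359 to 3463 in resting, with 1 of 9 called, Apoe, and with C1qc, Lyz2 and Adgre1 under the floor on both TI arrays. Apoe made up most of the TI sum, which without it was 1234 to 1651, below the 2688 to 2925 of resting and above the 231 to 734 of TD. For 8 T cell markers the sum was 24 to 467 in TI and 151 to 603 in TD. For 8 neutrophil markers it was 1374 to 2444 and 1041 to 1745, and for 5 red cell markers 322 to 676 and 343 to 1026. For 6 stromal and follicular dendritic cell markers it was 1054 to 1159 and 1201 to 1426. Negative deposited values were kept in the sums where a list had them, so a sum can be smaller than the value of a single gene. The red cell gene Hba-a1 alone read 508 and 490 in TI. In the macrophage sums C1qc read -287 and -456 in TI and -555 to -207 in TD. None of the T cell, neutrophil, red cell and stromal lists had a gene called between TI and TD. The T cell genes Cd3e, Cd3d, Cd8a and Thy1 were under the floor in every group. Cd2 and Cd4, however, were above it on all 8 arrays. Cd2 read 430 and 480 units in TI, 333 to 526 in TD, and 838 and 1129 in resting. Cd4 read 366 and 382 in TI, 422 to 710 in TD, and 292 and 339 in resting. Cd3g and Cd28 were above the floor on some arrays, Cd28 in TI alone (103 and 140). The part of other cells in the low TI values was not tested.

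The ratio of 3′ to 5′ Gapdh control signal, a measure of RNA quality, was 1.24 and 1.68 in TI, 0.836 to 0.981 in the TD arrays, and 0.867 and 1.59 in resting. With this ratio as a covariate, TI lay below the mean of the TD groups by -1.73 for Gcsam, -3.02 for Basp1 s_at and -0.46 for r_at on the log2 scale. Over all probe sets that fit called 15 between TI and TD, against 263 without the covariate, and none of Pfn1, Cd81, Jchain, Xbp1, Tnfrsf17 and Apoe passed in it. Pfn1 also did not pass without TI replicate 1 or 2. Cd81 did not pass when any single TI or TD array was left out, nor with the floor at the 40th percentile.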

How the data were processed

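The deposited intensities are whole numbers on a linear scale, 30.1% of them 0 or below. The mean after trimming 2% at each end was 200.2 on every array, so they were taken as scaled signals. The software and scaling were not given in the sources used here, and per the labels RNAzol-extracted RNA was biotin-labelled by the Affymetrix protocol. The values were used without further normalization. Those under the 50th percentile (81) were set to it, log2 of the deposited values was taken, and 7253 of 12488 probe sets above it on at least 2 arrays were tested, without 66 controls. Of all probe sets 10855 had 1 gene symbol in the platform annotation, 396 several and 1237 none. A fold against arrays under the floor is a lower bound. One linear model of 4 groups was fitted in limma 3.58.1 (R 4.3.3), with Benjamini-Hochberg adjustment over all probe sets, two-sided. The number of arrays limits the precision, and array medians were 77 to 89.

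The genes and lists were chosen with earlier results of these data known. Named genes are the members, their 5 nearest profiles, the 4 genes of each list with the smallest p and the sort markers, and the text gives some of these. A gene is represented by its probe set of highest mean intensity. The method was tested on simulated data with independent noise, without a floor or differences in RNA quality between arrays. That test cannot show how the method performs where these matter. Arrays were not paired by replicate number in the main fit. Deviations of same-numbered arrays correlated between -0.22 and 0.12, a check that cannot exclude a pairing. The labels call the replicates biological. Alternatives were other scalings, floors and filters, a replicate block, array weights, another prior, a Gapdh covariate and leaving out each array.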

Additional observations from a re-analysis of the deposited data

Results flagged for a closer look

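At Basp1 r_at the mean of TI lay below resting (-310 units; the arrays were -610 and -10 from the resting mean), while the 4 TD arrays lay 901 to 1264 units above it. The opposite directions flagged this probe set, and the difference was not tested. The TI arrays read 2309 and 2909 and the resting arrays 3376 and 2462, so these groups overlapped.

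Other genes were noted because their change from resting differed between TI and the mean of the TD groups in the limma fit. The log2 differences, TI minus TD, were 1.38 for Pfn1 and 0.86 for Cd81 among the pathway genes, 1.89 for Jchain, 1.79 for Xbp1 and 1.36 for Tnfrsf17 among the plasma cell markers, and 2.19 for Apoe among the macrophage markers. All 6 were higher in both TI arrays than in each TD array. Under the 19 alternatives the direction held for each. The call held in 16 for Pfn1, 10 for Cd81, 17 for Jchain, 11 for Xbp1, 10 for Tnfrsf17 and 10 for Apoe.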

How the results depend on the processing

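Over 19 alternatives (8 leaving out an array), TI stayed below the mean of the TD groups at all 3 probe sets. For Gcsam the log2 difference was -1.65 with a pseudocount of 100 and -1.73 with the Gapdh ratio as a covariate, and -2.36 to -2.06 when an array was left out. For Basp1 s_at all 19 lay between -3.20 and -2.85. For Basp1 r_at it was -0.46 with the covariate and -0.79 to -0.46 when an array was left out, the extremes being without TI replicate 2 and 1. The rise of Basp1 s_at in TI over resting follows the floor by construction: 3.90 at the 40th percentile, 1.91 at the 60th, and 2.61 to 2.85 without single arrays.

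The difference of unprimed minus primed TD did not pass in any alternative and changed sign in some: without single arrays it was -0.49 to 0.12 for Gcsam (positive without unprimed TD replicate 2) and -0.21 to 0.32 for s_at, which gave -0.034 at a common median. For Basp1 r_at it was 0.015 after quantile normalization. The cause was not tested. This comparison called 0 probe sets, 14 without a filter, and 0 to 1 without single arrays. TI against the mean of the TD groups called 263, 132 without a filter, 420 with array weights, 15 with the covariate and 134 with the replicate block, which ended the calls of Cd81, Xbp1, Tnfrsf17 and Apoe. In the comparison of the TD groups the block gave no member a call. Without single arrays it called 13 to 316, with 49 and 13 without TI replicate 1 and 2, 82 and 86 without primed TD replicate 1 and 2, and 99 and 85 without unprimed TD replicate 1 and 2.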

Other observations

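The probe set with the widest gap between the TD arrays and all others was not among those with exactly 1 gene symbol in the annotation used here. It read 1986, 1244, 3567 and 3923 units in the TD arrays and between 25 and 78 in the others. Plxnb2, a plexin gene of the germinal centre list, resembled Basp1 in having probe sets that disagreed. At one the TD arrays read 172 to 315 units and all TI and resting arrays were under the floor, while its probe set of highest mean intensity read 763 to 1036 over all 8 arrays.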
